A study of Ovis aries with 19 samples.

Results

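The genes described here encode the receptors, ligands and inhibitors of interleukin 1 (IL-1), interleukin 18 and interleukin 6 (IL-6). They were chosen by name, and by a mean normalized read count of at least 10 in liver or in muscle. Of the 9 names, 8 passed, out of 28524 gene identifiers in all. IL1RAP is listed under its gene number, as LOC101108354. The ninth, IL18BP, a secreted inhibitor of interleukin 18, is listed at 0 in all 19 libraries, and a count of 0 allows up to 3 reads in a library. All 8 passed in liver and 4 of them passed in muscle. Nearest to the limit, IL1RAP had a mean of 13.5 over the muscle libraries and was tested there, while IL18 had 9.30 and was not.

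RNA was sequenced from liver and muscle of 10 female sheep, either control animals or animals given prenatal T-treatment, that is, excess testosterone before birth. Liver gave 4 control and 5 treated libraries, and muscle gave 5 and 5, with each library from a separate animal within a tissue. The sources used here name neither the age of the sheep, the muscle sampled nor the dose, and no batch within a tissue. Total reads ran from 10236610 to 16046301 per liver library and from 8455563 to 14331578 per muscle library. Hepatocyte markers summed to at least 347000 normalized counts in each liver and to at most 143 in each muscle. Skeletal muscle markers summed to at least 1130000 in each muscle and to at most 171 in each liver.

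IL-1 signals through IL1R1, the signalling receptor, joined by IL1RAP, its accessory chain. IL1R2 binds the same ligands but cannot signal and so acts as a decoy, and IL1RN is a secreted antagonist of IL1R1. IL-6 binds IL6R and then IL6ST (gp130), which activates JAK kinases and STAT3, and in the liver this pathway drives the acute phase response. Liver cells are a main target of both cytokines, while macrophages are a main source of IL-1.

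In the liver the IL-1 receptors had the widest spread among the 8 genes, and the high values came from 2 of the 5 treated sheep. IL1R1 had normalized counts of 1948 in control sheep 98, 1667 in 131, 1182 in 179 and 1702 in 201. In the treated livers it had 2454 in sheep 48, 2062 in 63, 6653 in 185, 8699 in 233 and 1409 in 255. Of the treated sheep, 4 lay above every control and sheep 255 lay inside the control range, so the groups overlapped. The means were 1624 ± 321 (SD, n = 4) for the control livers and 4256 ± 3227 (SD, n = 5) for the treated ones. IL1R2, the decoy, had 73.1, 70.7, 71.3 and 34.5 in control sheep 98, 131, 179 and 201. Its treated livers had 139 in sheep 48, 92.4 in 63, 380 in 185, 918 in 233 and 54.2 in 255. Sheep 185 and 233 were again far above the rest, and sheep 255 again lay within the control range. The means of IL1R2 were 62.4 ± 18.6 (SD, n = 4) and 317 ± 360 (SD, n = 5).

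Neither receptor passed the limma test adjusted over all 13640 liver genes. The log2 difference, treated minus control on the log2(normalized count + 1) scale, was 1.06 ± 0.48 (SE) for IL1R1, with a limma p of 0.0485 and an adjusted p of 0.9995. For IL1R2 it was 1.65 ± 0.68 (SE), with a limma p of 0.0320 and an adjusted p of 0.9995. The exact two-sided permutation p was 0.127 for IL1R1 and 0.119 for IL1R2. By the count tests on whole reads the adjusted p of IL1R2 was 0.820 with edgeR and 0.0936 with DESeq2, and that of IL1R1 was 0.958 and 0.354. The treated-to-control ratio of means was 5.08 for IL1R2 and 2.67 without treated sheep 233, and for IL1R1 it was 2.62 and 1.94. Without treated sheep 185 the limma p was 0.102 for IL1R1 and 0.0630 for IL1R2, and without 233 it was 0.118 and 0.0654. Without treated sheep 48, 63 or 255 the limma p ran from 0.00927 to 0.0467 for IL1R1. For IL1R2 it ran from 0.00512 to 0.0364, and the lowest values of both were without sheep 255. With any single control left out, the limma p ran from 0.0564 to 0.115 for IL1R1 and from 0.0435 to 0.0932 for IL1R2.

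**Figure D1:**
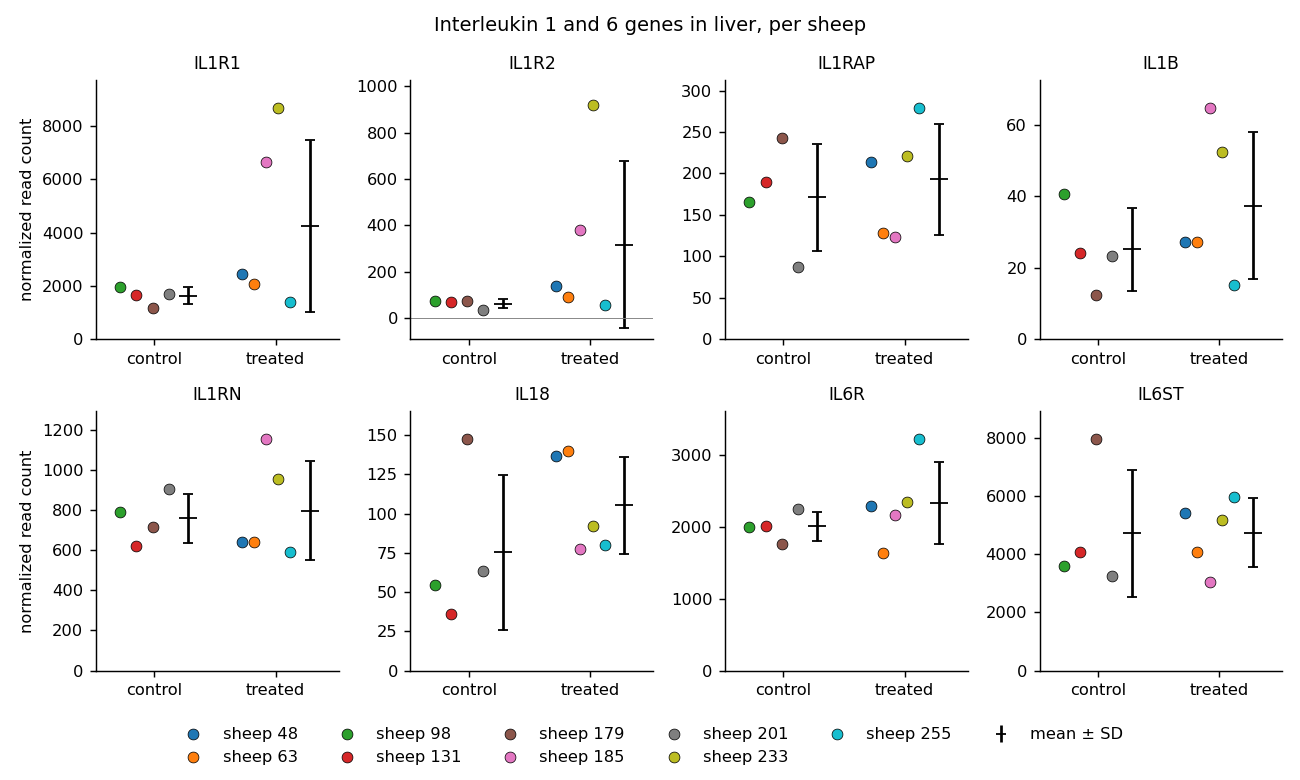
Normalized read counts (y axes, linear, reaching 0 or below where the mean − SD does) of the 8 genes in control and treated liver. Each point is 1 sheep, coloured by sheep number, and the black mark is the mean ± SD of 4 control or 5 treated sheep. Treated sheep 185 and 233 stand apart in IL1R1 and IL1R2 and have the highest values of IL1B and IL1RN, while control sheep 179 has the highest IL6ST.

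The ligand and the antagonist were highest in the same 2 livers. IL1B, the gene of interleukin 1 beta, had 40.7, 24.2, 12.4 and 23.4 in control sheep 98, 131, 179 and 201. In treated sheep 48, 63, 185, 233 and 255 it had 27.1, 27.2, 64.9, 52.5 and 15.2. Sheep 185 and 233 lay above every control and the other treated sheep lay inside the control range. These values rest on 14 to 63 reads per liver library. IL1RN had 790, 620, 717 and 906 in control sheep 98, 131, 179 and 201, and 642, 638, 1153, 955 and 590 in treated sheep 48, 63, 185, 233 and 255. Sheep 185 and 233 were above the control range, sheep 255 was below it, and the means were 758 ± 121 (SD, n = 4) and 796 ± 247 (SD, n = 5). The log2 difference was 0.49 ± 0.47 (SE) for IL1B and 0.03 ± 0.26 (SE) for IL1RN, each with a limma adjusted p of 0.9995. The difference of IL1B was 0.75 without control sheep 98 or treated sheep 255, 0.20 without control sheep 179, 0.25 without treated sheep 185 and 0.32 without 233. The difference of IL1RN was -0.12 without treated sheep 185, -0.05 without 233 and -0.06 without control sheep 131.

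The antagonist was also taken as a share of its receptor in the same library. This share restates the high IL1R1 of sheep 185 and 233, since IL1RN itself was highest there. IL1RN amounted to 17.3% of the IL1R1 normalized count in treated sheep 185 and 11% in 233. It amounted to 26.1%, 30.9% and 41.9% in treated sheep 48, 63 and 255, and to between 37.2% and 60.6% in the 4 controls. IL1R2 amounted to 10.6% of IL1R1 in treated sheep 233 and to between 2.03% and 6.04% in the other 8 livers. These shares are not scaled for gene length, so they compare libraries and not the abundance of the transcripts.

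IL1RAP, the accessory chain, did not follow the receptors. It ranged from 86.8 to 242 over the controls and from 123 to 280 over the treated livers, with 123 in treated sheep 185 and 221 in 233. Its log2 difference in liver was 0.19 ± 0.35 (SE), and -0.10 without control sheep 201. IL18, a cytokine of the IL-1 family, had 54.3, 35.8, 148 and 63.4 in control sheep 98, 131, 179 and 201. In treated sheep 48, 63, 185, 233 and 255 it had 137, 140, 77.3, 92.1 and 80.2. All 5 treated livers were above 3 of the controls and all 5 were below control sheep 179. The log2 difference of IL18 was 0.63 ± 0.39 (SE), with a limma adjusted p of 0.9995. Without control sheep 179 it was 1.02, with a limma adjusted p of 0.545, and without control sheep 131 it was 0.35. Its receptor subunit IL18RAP had means of 6.71 ± 3.68 (SD, n = 4) for the control livers and 14.7 ± 5.39 (SD, n = 5) for the treated ones, with a log2 difference of 1.15 ± 0.53 (SE) and an adjusted p by limma of 0.9995. IL18RAP passed the filter in liver only through the treated group, which favours a difference above 0. The other subunit, IL18R1, had at most 8.56 in a liver and was not tested.

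The IL-6 receptor chains overlapped between the groups in liver. IL6R had 1999, 2012, 1762 and 2257 in control sheep 98, 131, 179 and 201, and 2297, 1645, 2168, 2344 and 3227 in treated sheep 48, 63, 185, 233 and 255. Treated sheep 255, which was low in both IL-1 receptors, had the highest IL6R. IL6ST had 3581, 4058, 7953 and 3259 in the same controls and 5427, 4088, 3031, 5168 and 5976 in the same treated sheep. Control sheep 179 stood above all other livers. The log2 differences were 0.19 ± 0.23 (SE) for IL6R and 0.06 ± 0.31 (SE) for IL6ST, each with a limma adjusted p of 0.9995. The difference of IL6ST was -0.08 without control sheep 201, -0.03 without control sheep 98, -0.03 without treated sheep 255 and -0.01 by edgeR. IL6 itself had at most 5.15 normalized counts in a liver, in treated sheep 185, and was listed at 0 in 4 of the 9 livers.

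In all, 8 of 8 tested genes had a log2 difference above 0 in liver, with a median of 0.34, beside a median of 0.003 over all genes tested. At an unadjusted limma p under 0.05, 2 of the 8 were higher and 0 lower, where 1.82% of all liver genes were higher and 2.17% lower. None of the 8 passed the adjusted threshold, which 0.00733% of liver genes passed, and none had groups that did not overlap, which held for 0.858% of genes in the higher and 0.682% in the lower direction. IL1R1 and IL1R2 had the same 2 high libraries, in which IL1B and IL1RN were also highest, so these genes are not independent in such a count. The differences of IL1RN, IL1RAP and IL6ST changed sign when a single library was left out.

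Markers of immune cells overlapped between the groups. In these bulk tissues fewer cells of a type and less RNA per cell cannot be told apart. The 12 macrophage and Kupffer cell markers in the table summed to between 3540 and 7380 in control and between 3660 and 8940 in treated liver. The sums in treated sheep 185 and 233 were 7485 and 7228, and control sheep 98 had 7375. The 12 neutrophil markers summed to between 438 and 1090 in control and between 729 and 1100 in treated liver, with 729 in sheep 185 and 923 in 233. All 5 treated neutrophil sums lay above those of control sheep 98, 131 and 201, while control sheep 179 had 1086. Most of the neutrophil sum was FCGR3A, which other cells also express, and the means of MPO and MMP8 were under 1 in both groups. Other neutrophil markers were better covered and differed in direction. In control and treated liver S100A8 had means of 15.5 and 38.9, S100A9 59.3 and 50.5, and CXCR2 16.8 and 11.2. T and NK cell markers had 11 of 11 tested genes above 0, 2 of them at an unadjusted limma p under 0.05, and summed to between 318 and 512 in control and between 414 and 823 in treated liver. The sums in sheep 185 and 233 were 541 and 640. Adipocyte markers had 5 of 5 tested genes below 0, 3 of them at an unadjusted limma p under 0.05, with sums of 342 to 624 in control and 178 to 403 in treated liver, and the 11 skeletal muscle markers summed to 60.1 to 171 in control and 27.1 to 51.5 in treated liver. Endothelial markers had 9 of 10 tested genes below 0, 1 of them at an unadjusted limma p under 0.05, with sums of 2630 to 4320 in control and 1980 to 4160 in treated liver. B and plasma cell markers had 2 of 4 tested genes above 0 and 2 below, 1 of these at an unadjusted limma p under 0.05. Their sums were 422 to 1850 in control and 634 to 1310 in treated liver. Hepatocyte markers summed to 347200 in treated sheep 185, 854900 in 233 and 1566000 in 255. In the controls they summed to between 523000 and 1110000. The part of these cells in the receptor levels was not tested.

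**Figure D2:**
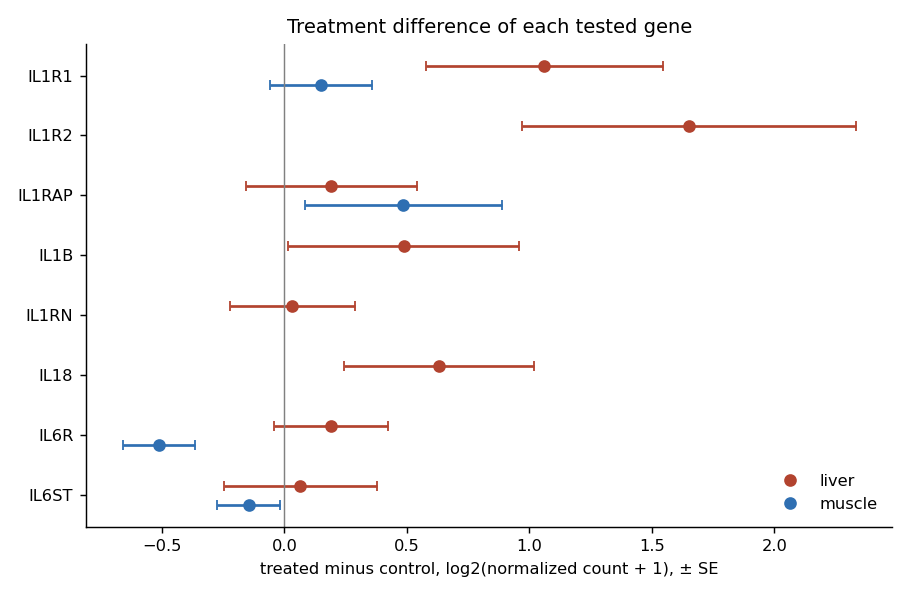
Treated minus control difference on the log2(normalized count + 1) scale (x axis) with its limma SE, for each gene tested in liver (red) and in muscle (blue). IL1R1 and IL1R2 have the largest differences in liver, 1.06 and 1.65, and IL6R has -0.51 in muscle.

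Muscle carried much lower levels of most of these genes. Among the 4 tested there, the largest treatment difference was that of IL6R, which was lower in treated sheep. IL6R had 964 in control sheep 98, 1693 in 131, 1546 in 132, 1385 in 179 and 1274 in 201. In treated muscle it had 958 in sheep 48, 843 in 63, 1085 in 185, 955 in 233 and 899 in 255. Of the treated sheep, 4 lay below every control. Control sheep 98 was the lowest control and lay below treated sheep 185, so the groups overlapped. The means were 1372 ± 278 (SD, n = 5) for the control muscles and 948 ± 89.7 (SD, n = 5) for the treated ones, a ratio of 0.691. The log2 difference was -0.51 ± 0.15 (SE), with a limma p of 0.00405, an adjusted p of 0.184 over 12966 genes and an exact two-sided permutation p of 0.0159. IL6R thus did not pass the adjusted threshold by limma, nor by edgeR with an adjusted p of 0.272. DESeq2 gave an adjusted p of 0.00393. Both count tests were run without the muscle of control sheep 98, the lowest control, a choice of libraries made after seeing the data. By limma without that sheep the difference was -0.63 and the adjusted p 0.234.

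IL6ST, the signalling chain, had 1055, 1324, 1214, 1220 and 1092 in control sheep 98, 131, 132, 179 and 201. In treated sheep 48, 63, 185, 233 and 255 it had 1008, 888, 978, 1311 and 1188. Of the treated sheep, 3 lay below every control, and the log2 difference was -0.15 ± 0.13 (SE), with a limma adjusted p of 0.636. IL6R amounted to between 91.3% and 128% of IL6ST in control muscle and to between 72.8% and 111% in treated muscle, again not scaled for length. IL6 was listed at 0 in 9 of 10 muscles.

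**Figure D3:**
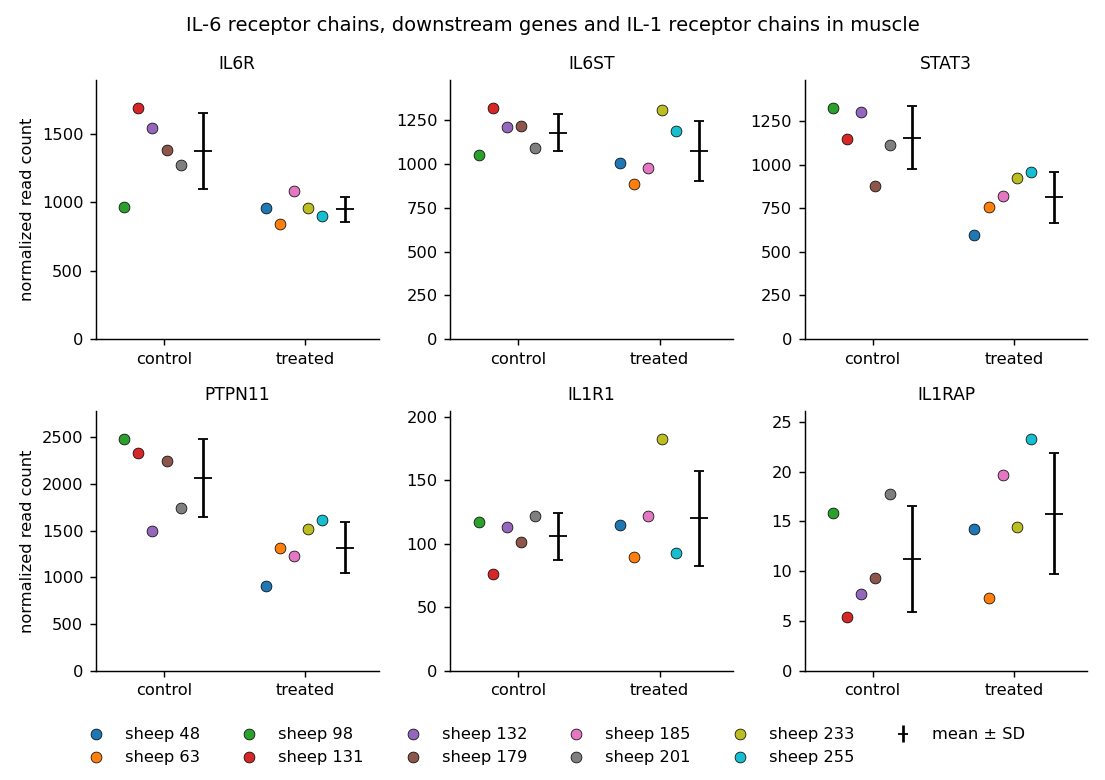
Normalized read counts (y axes, linear, from 0) in control and treated muscle of IL6R, IL6ST, STAT3, PTPN11, IL1R1 and IL1RAP. Each point is 1 sheep and the black mark is the mean ± SD of 5 sheep. Treated IL6R lies between 843 and 1085, with 4 of 5 treated sheep below every control.

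The IL-1 receptor chains in muscle overlapped between the groups. IL1R1 had 117, 75.8, 113, 101 and 122 in control sheep 98, 131, 132, 179 and 201, and 115, 89.0, 121, 182 and 92.2 in treated sheep 48, 63, 185, 233 and 255. Sheep 233, the highest liver for IL1R1, was also the highest muscle, while sheep 185 lay inside the control range. The log2 difference was 0.15 ± 0.21 (SE), with a limma adjusted p of 0.784, and without treated sheep 233 it was -0.01. IL1RAP ranged from 5.41 to 17.8 in control and from 7.28 to 23.3 in treated muscle, with a log2 difference of 0.49 ± 0.40 (SE) and an adjusted p by limma of 0.611, and 0.28 without control sheep 131. Of the genes under the filter, IL1R2 had at most 6.82 normalized counts in a muscle, IL1B at most 5.81 and IL1RN at most 10.2. IL18 ranged from 4.85 to 17.5, with means of 8.70 ± 4.10 (SD, n = 5) for the control muscles and 9.90 ± 5.38 (SD, n = 5) for the treated ones. In the 9 muscles with recovered reads, IL1R2 had 16 reads in all and IL1B 13. With no filter on low values the limma log2 differences were 0.27 ± 0.68 (SE) for IL1R2, 0.23 ± 0.52 (SE) for IL1B, -0.03 ± 0.47 (SE) for IL1RN and 0.12 ± 0.43 (SE) for IL18.

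Of the 4 genes tested in muscle, 2 were above and 2 below 0, with a median of 0.002, beside -0.013 over all genes tested. At an unadjusted limma p under 0.05, 1 was lower and 0 higher, where 7% of muscle genes were lower and 7.37% higher. The 1 gene is IL6R. None passed the adjusted threshold, which 0.00771% of muscle genes passed. None of the 4 had groups that did not overlap, against 1.76% of genes in the higher and 1.53% in the lower direction. Skeletal muscle markers moved in the same direction as IL6R, with 11 of 11 tested genes below 0 and sums of 2060000 to 2330000 in control and 1130000 to 2080000 in treated muscle. Adipocyte markers had 6 of 6 tested genes below 0, 3 of them at an unadjusted limma p under 0.05, with sums of 2470 to 4100 in control and 1910 to 3150 in treated muscle. Most of these sums was LPL, with a mean of 1170 in both groups, and PLIN4, with 1170 and 865. ADIPOQ had means of 215 in control and 70.9 in treated muscle, FABP4 657 and 264, and PLIN1 62.8 and 25.4. T and NK cell markers had 8 of 9 tested genes above 0, 1 of them at an unadjusted limma p under 0.05. Their sums were 190 to 270 in control and 222 to 388 in treated muscle. The part of these cells in the IL6R level was not tested.

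The treatment difference in muscle minus that in liver was fitted over all 19 libraries for the 4 genes measured in both tissues. It was -0.70 ± 0.26 (SE) for IL6R, with a limma p of 0.0127 and an adjusted p of 0.897 over 11697 genes. For IL1R1 it was -0.91 ± 0.53 (SE), with a limma adjusted p of 0.973. IL1RAP had 0.29 and IL6ST -0.21. At an unadjusted limma p under 0.05, 1 of the 4 was lower and 0 higher, where 2.34% of genes were lower and 2.56% higher. None of the 4 passed the adjusted threshold, which 0.00855% of genes passed. The treatment differences of these genes were thus not shown to differ between the tissues.

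The order of the levels over the 4 groups was the same for the IL-1 receptors, since both liver groups lay above both muscle groups. The lowest liver value of IL1R1, 1182, exceeded the highest muscle value, 182, and the lowest IL1R2 in liver, 34.5, exceeded the highest in muscle, 6.82. The lowest IL1RN in liver, 590, exceeded the highest in muscle, 10.2. IL6R and IL6ST were closer between tissues. The lowest liver IL6R, 1645, lay below the highest muscle IL6R, 1693, and the lowest liver IL6ST, 3031, lay above the highest muscle IL6ST, 1324. The median log2 ratio of a library to the geometric mean of its tissue was the same in all libraries of that tissue, but over all 19 libraries together it differed by up to 0.276 on the log2 scale, so the deposited values were scaled within each tissue and levels across tissues are set side by side without a test.

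Other receptors and ligands of the 2 families gave no gene past the adjusted limma threshold. Of 14 further IL-1 family genes, 5 were tested in liver, 4 above and 1 below 0, with a median of 0.22, and 0 had an unadjusted limma p under 0.05. Among the 4, IL18RAP passed the filter only through the treated group. In muscle 2 were tested and both were above 0, SIGIRR with means of 43.9 in control and 62.4 in treated muscle, and IL33 with 107 and 138. IL33 had an unadjusted limma p of 0.0407 and an adjusted p of 0.328. IL1A, the gene of interleukin 1 alpha, had means of 10.1 ± 7.22 (SD, n = 4) for the control livers and 10.4 ± 7.62 (SD, n = 5) for the treated ones. SIGIRR, an inhibitory receptor of the family, had 299 and 236 in liver. Of 15 further gp130 family genes, 7 were tested in liver, 3 above and 4 below 0, and 8 in muscle, 7 above and 1 below 0, with 0 at an unadjusted limma p under 0.05 in either tissue. In muscle CTF1, the cytokine cardiotrophin, had means of 37.0 in control and 48.5 in treated muscle, and CNTFR, the ciliary neurotrophic factor receptor, had 186 and 281. In liver IL11RA, the interleukin 11 receptor, had 335 and 247, and CTF1 had 32.1 and 26.2. OSMR, the oncostatin M receptor, had 573 and 958 in treated livers 185 and 233, 335 to 538 in the other treated sheep and 281 to 553 in the controls.

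Downstream of the IL-1 receptor, 28 of 29 genes were tested in liver. Of these, 20 were above and 8 below 0, with a median of 0.12, and 0 had an unadjusted limma p under 0.05. MYD88, the adaptor of the receptor, had means of 26.3 ± 22.6 (SD, n = 4) for the control livers and 39.1 ± 17.5 (SD, n = 5) for the treated ones. It had 62.9 in treated sheep 185 and 52.5 in 233, and control sheep 98 had 58.9. MAPK14, the p38 kinase, had means of 900.5 and 1205. NFKBIZ, an NF-kB regulator induced by IL-1, had means of 679 and 929, and here sheep 185 and 233, at 853 and 805, were the lowest of the treated livers. In muscle 29 genes were tested, 16 above and 13 below 0, with 1 higher and 3 lower at an unadjusted limma p under 0.05. Beside the 7.37% higher and 7% lower of all muscle genes, this is no result about the list. The 3 genes with the smallest limma p were CHUK, a kinase that activates NF-kB, with means of 958 in control and 744 in treated muscle, IRAK2, a kinase of the receptor complex, with 52.1 and 72.6, and TAB3, an adaptor of the kinase TAK1, with 565 and 457.

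No gene downstream of gp130 passed the adjusted limma threshold in either tissue. In liver 17 of 18 were tested, 10 above and 7 below 0, with 0 at an unadjusted limma p under 0.05. PIAS3, an inhibitor of STAT3, had the smallest limma p of the list in liver, with 109, 108, 112 and 124 in control sheep 98, 131, 179 and 201 and 64.9, 69.5, 122, 89.9 and 61.8 in treated sheep 48, 63, 185, 233 and 255. Of the treated livers, 4 lay below every control and sheep 185 lay inside the control range. The log2 difference of PIAS3 was -0.51 ± 0.26 (SE), with a limma p of 0.0762 and an adjusted p of 0.9995. SOCS3, the feedback inhibitor of gp130, had 1269 and 1835 in treated livers 185 and 233, 519 to 689 in the other treated sheep and 493 to 775 in the controls. CEBPD, a transcription factor of the acute phase response, had 1580 and 2347 in the same 2 livers, 691 to 1249 in the other treated sheep and 782 to 1031 in the controls. STAT3 had 2527 and 1998 there, but also 2248 in control sheep 98.

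In muscle 17 of 18 genes were tested, 4 above and 13 below 0, with a median of -0.11, and 3 were lower and 0 higher at an unadjusted limma p under 0.05, where 7% of all muscle genes were lower and 7.37% higher. STAT3 had 1329, 1151, 1306, 880 and 1113 in control sheep 98, 131, 132, 179 and 201, and 599, 757, 824, 924 and 960 in treated sheep 48, 63, 185, 233 and 255. Only control sheep 179 lay within the treated range. The log2 difference of STAT3 was -0.51 ± 0.15 (SE), with a limma adjusted p of 0.194. PTPN11, the phosphatase SHP2 that binds gp130, had means of 2059 ± 419 (SD, n = 5) and 1316 ± 275 (SD, n = 5), and a log2 difference of -0.65 ± 0.18 (SE) with a limma adjusted p of 0.176. SOCS3 had means of 94.5 ± 41.3 (SD, n = 5) and 151 ± 84.6 (SD, n = 5) in muscle, opposite in sign to STAT3.

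**Figure D4:**
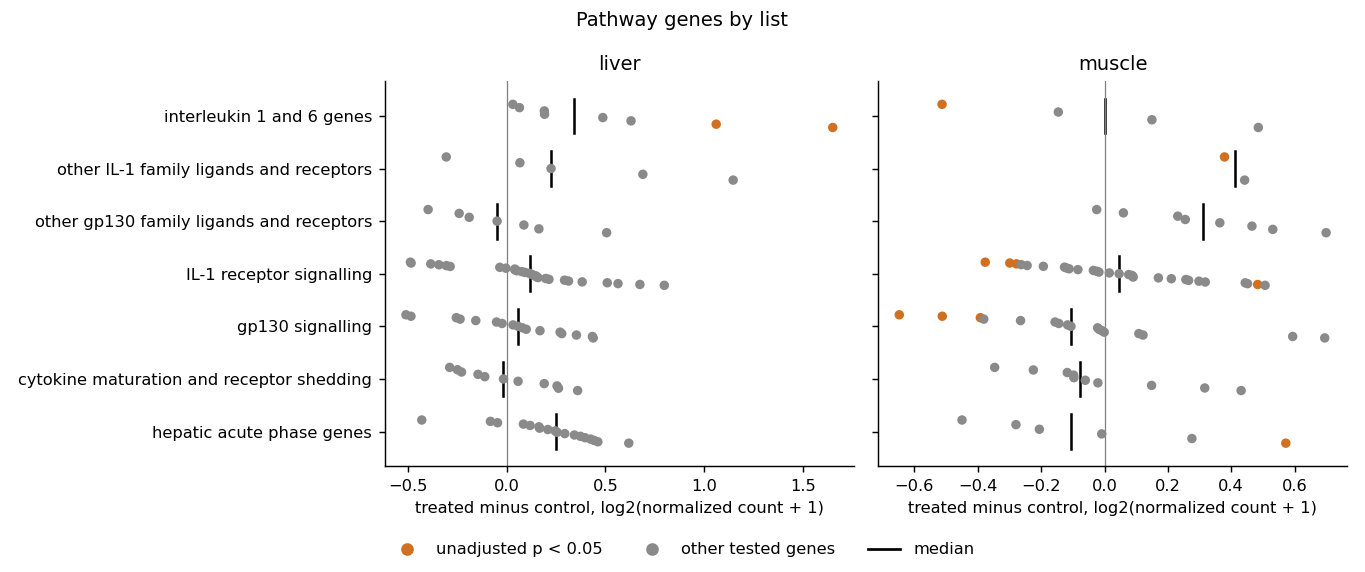
Treated minus control difference on the log2(normalized count + 1) scale (x axes) of each tested gene, by list, in liver (left) and muscle (right). Orange points have an unadjusted limma p under 0.05, grey points do not, and the black line is the list's median. No point passed the adjusted threshold, and 3 gp130 signalling genes and IL6R lie at the lower end in muscle.

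Genes that mature the cytokines or shed the receptors were measured in both tissues. Of 19 genes, 16 were in the table, 11 were tested in liver and 10 in muscle, and 0 had an unadjusted limma p under 0.05 in either tissue. CASP1, the protease that cleaves the precursors of interleukin 1 beta and interleukin 18, had means of 21.99 ± 10.95 (SD, n = 4) for the control livers and 28.9 ± 12.8 (SD, n = 5) for the treated ones. ADAM17, a protease that sheds IL6R, had 215 and 258, BACE2 had 262 and 221, and TXNIP, which binds the inflammasome sensor NLRP3, had 2505 and 2066. In muscle TXNIP had 34050 and 26640, NEK7, a partner of NLRP3, had 2149 and 1866, and GSDMD, the pore protein through which interleukin 1 beta leaves cells, had 18.6 and 25.1. Of the hepatic acute phase genes, 18 were tested in liver, 15 above and 3 below 0, with a median of 0.25 and 0 at an unadjusted limma p under 0.05. ITIH4, an acute phase protein, had 211400 in treated sheep 185 and 93550 in 233, and between 33950 and 136200 in the controls. FGG, a fibrinogen chain, had means of 420700 and 540500. C3, the central complement protein, had means of 162200 ± 27620 (SD, n = 4) and 223200 ± 33850 (SD, n = 5), with a limma adjusted p of 0.9995. In muscle 6 were tested, 2 above and 4 below 0, with 1 higher at an unadjusted limma p under 0.05, ITIH4, with means of 650 in control and 1021 in treated muscle and an adjusted p of 0.309. FTH1, a ferritin chain, had 3666 and 4458 there, and A2M, a protease inhibitor, had 243 and 166.

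Likeness was taken as Pearson's r of log2(normalized count + 1) over the 9 liver libraries, and the 2 most alike genes were named for each. The libraries share their animals and both treatment groups, so these values describe the table and carry no test. IL1R1 was most like HTR4, a serotonin receptor gene (r = 0.961), and WWC1 (r = 0.957). HTR4 had 931 in treated sheep 185 and 705 in 233, and between 46.7 and 86.1 in the other 7 livers. IL1R2 was most like BBS2 (r = 0.945) and IL1R1 (r = 0.942). IL1B was most like GOLGA2 (r = 0.962) and USB1 (r = 0.960), and IL1RN was most like AOC2 (r = 0.949) and LGMN (r = 0.940).

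IL6ST was most like GTPBP10 (r = 0.989) and LIFR (r = 0.988), the receptor of leukemia inhibitory factor, which pairs with gp130. LIFR had 2608 in control sheep 179, where IL6ST was highest, and 793 in treated sheep 185, where IL6ST was lowest. IL1RAP was most like CPNE3 (r = 0.984) and PLA2G12A (r = 0.974), and with IL6ST it had r = 0.830. IL18 was most like MRPS22 (r = 0.957) and PGFS (r = 0.955), and IL6R was most like SETMAR (r = 0.925) and NBEA (r = 0.895). Between members the values split in the same way, since IL1R1 had r = 0.878 with IL1B and 0.725 with IL1RN, but -0.130 with IL1RAP and -0.325 with IL6ST.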

How the data were processed

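Liver and muscle RNA-seq values came as 1 table. Per the submitters' processing notes, the tools were Trimmomatic, STAR and featureCounts 1.6.1. The build, annotation and strand setting are not given in the sources used here. Values, deposited as a signal, are normalized read counts in whole multiples of 1 read in each library within 0.01 read (100% of values), so reads could be recovered. IL1RAP was matched by gene number in the RefSeq table of ARS-UI_Ramb_v3.0.

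Genes with a mean of at least 10 were tested on log2(value + 1) by limma 3.58.1 (trend, R 4.3.3), per tissue, with Benjamini-Hochberg adjustment over all genes at 0.05. This scale understates changes of low genes. The tissue difference used all 19 libraries and the genes that passed in both tissues. edgeR 4.0.16 and DESeq2 1.42.0 on recovered reads were alternatives, run on 18 libraries, because the muscle library of control sheep 98 was not accepted as whole reads by a check of its step. The count tests were planned, but leaving that library out was chosen after seeing the data. Other alternatives were pseudocounts, filters, rescaling, 1 fit, the sheep as a block and libraries left out. All 32 within-group pairs of libraries with recovered reads differed beyond sampling noise (lowest chi-square over its degrees of freedom, 19.6). The muscle library of control sheep 98 was not among them. Liver and muscle libraries are paired by animal, with a median correlation of deviations of 0.177 within and -0.0172 between sheep. The fits were tested on simulated data.

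The genes, lists and tests were chosen with earlier results of these data known. Named were all members, fixed partner genes, the 3 smallest limma p-values per pathway list and tissue, and the 2 most alike genes per member. Of the genes that this rule names, 2 are not reported here. Permutation tests were exact and two-sided, on log2(value + 1). Adjusted p-values over the list alone were not used.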

Additional observations from a re-analysis of the deposited data

Results flagged for a closer look

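Of 24 groups of libraries examined for a single value far from the others, 2 were picked out, and chance alone picks out about 1 in 20. IL1R2 had 34.5 normalized counts in the liver of control sheep 201, below the 70.7 to 73.1 of the other 3 controls. IL6ST had 7953 in the liver of control sheep 179, above the 3259 to 4058 of the other 3 controls.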

How the results depend on the processing

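By limma 1 gene passed the adjusted threshold in liver, 1 in muscle and 1 for the tissue difference, with 544, 1862 and 573 genes at an unadjusted p under 0.05. In liver this count was 0 with a mean of at least 50 (386 unadjusted), 32 with DESeq2 and 9 with 1 fit of all libraries. In muscle it was 0 with a pseudocount of 0.25 (1858 unadjusted), 0 with a mean of at least 50 (1533 unadjusted), 0 with edgeR (1452 unadjusted), 96 with DESeq2 and between 0 and 4 without 1 library. For the tissue difference it was 0 with a pseudocount of 4 (576 unadjusted), no filter (1148), upper-quartile rescaling (556, added after seeing the data) or edgeR (560), 6 with DESeq2 and between 0 and 1 without 1 sheep. With the sheep as a replicate block it was 1, and the block changed no call of a member.

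Of 293 values of the members under an alternative, 283 kept their direction and their side of the threshold, 9 changed sign and IL6R in muscle passed with DESeq2 (log2 difference -0.63), as given above. IL6ST in liver was -0.013 with edgeR, and without 1 library it ran from -0.080 to 0.35, IL1RN in liver from -0.12 to 0.13, IL1RAP in liver from -0.10 to 0.39 and IL1R1 in muscle from -0.013 to 0.24. The cause was not tested. The number of liver members at an unadjusted p under 0.05 was 2, and 0 without control sheep 201, treated sheep 185 or treated sheep 233. It was 1 with a mean of at least 50, with TMM or upper-quartile rescaling, and without control sheep 98 or 131. In all these settings the limma p of IL1R1 was over 0.05. Without control sheep 179 the 2 were IL1R2 and IL18. In muscle, depth limits IL1R2, IL1B, IL1RN and IL18, which lay under the filter.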

Other observations

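IL1RL1, the receptor of interleukin 33, lay under the filter in muscle and was singled out after its values were seen. It had 11.9, 16.2, 11, 11.6 and 9.57 normalized counts in control sheep 98, 131, 132, 179 and 201, and 5.07, 0, 3.64, 5.96 and 3.88 in treated sheep 48, 63, 185, 233 and 255. All 5 treated muscles were below every control. With no filter on low values its log2 difference was -1.71 ± 0.50 (SE), with a limma adjusted p of 0.237 over 20636 genes. Among the muscle genes past the filter, 1.53% had treated values all below the controls, and since IL1RL1 was picked for that pattern its lack of overlap is a description. IL33, the ligand, had means of 107 ± 19.1 (SD, n = 5) for the control muscles and 138 ± 19.2 (SD, n = 5) for the treated ones, with a log2 difference of 0.38 ± 0.17 (SE) and an adjusted p by limma of 0.328. In liver IL1RL1 had means of 11.7 and 19.5 and IL33 150 and 149, with overlapping groups.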
